A study of Rattus norvegicus with 6 samples.

Results

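The 9 genes described here are markers of immature and non-myelinating Schwann cells: Ngfr, Ncam1, L1cam, Cadm1, Gfap, Nes, Vim, S100b and Gap43. They were picked by symbol from the 17327 gene symbols of each count file, and all 9 were found. Messenger RNA was counted in Schwann cells from sciatic nerves of adult Wistar rats, given either soluble NRG1β1 at 10 nM for 6 h (NRG1, 3 libraries) or its buffer alone for the same time (mock, 3 libraries). The 3 pairs came from independent preparations of cells, called cultures 1, 2 and 3 after the number in the sample titles, and each culture gave 1 mock and 1 NRG1 library. All cells were grown in serum medium with forskolin, which raises cyclic AMP, and with a soluble NRG1 (glial growth factor), and all were then kept overnight in low serum with forskolin. The mock cells had therefore met NRG1 before, were under forskolin throughout and had no axons. Culturing removes the axonal signals that set a marker's level in the nerve.

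Schwann cells mature from precursors through an immature stage into either myelinating cells or non-myelinating (Remak) cells, which bundle thin axons. The p75 neurotrophin receptor, the adhesion molecules NCAM and L1 and the intermediate filament GFAP mark immature cells, stay on in Remak cells and are switched off when a cell forms myelin. They return after nerve injury, when Schwann cells lose their axons and become repair cells, and axon-derived NRG1, acting through ErbB2 and ErbB3, is a main signal at several of these steps. Not every marker on the list is restricted in this way, since S100b is also carried by myelinating cells and vimentin by most cultured cells.

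Gene counts per library ran from 6821590 to 15475018, so that 3 counts, taken as the floor, stood for 0.194 to 0.440 CPM (counts scaled to the library total). Of 13129 genes with a count, 9740 passed the filter on low counts and were tested. The Schwann cell markers S100b, Ngfr, Sox10, Erbb3 and Cdh19 were present in every library, with at least 585 counts each. Both libraries of culture 1 stood apart from the other 4 by fibroblast markers. Dcn had 4574 and 3203 counts in mock 1 and NRG1 1, Lum had 174 and 111, Thy1 had 9493 and 8576, and these 3 genes were at 0 in the other 4 libraries. The 8 fibroblast markers summed to 54637 CPM in mock 1 and 58955 in NRG1 1, against 13921 to 22735 in the other 4, most of it Col1a1 and Col3a1. Macrophage markers (8 genes, among them Cd68) summed to 3.23 to 10.7 CPM with Ptprc and Cd163 at 0, and endothelial markers (7 genes, among them Tek) to 6.53 to 15.4 CPM with Pecam1, Cdh5 and Cldn5 at 0. Neuronal markers (7 genes, among them Uchl1) summed to 158 to 392 CPM with Rbfox3 at 0, and perineurial markers (4 of 5 in the files) to 108 to 197 CPM. With NRG1, 0 of the 4 tested fibroblast markers passed the test (2 at an unadjusted p under 0.05, and 0 with DESeq2). The 2 were lower, with log2 fold changes of -0.98 for Col3a1 (edgeR adjusted p = 0.0118) and -0.42 for Pdgfrb. Col1a1 was at -0.16 and Pdgfra at 0.19. The endothelial sum was 10.3 to 15.4 CPM in the mock libraries and 6.53 to 9.10 in the NRG1 libraries. Those ranges do not overlap, but most of the sum was Tek. Its groups overlapped and it was not called (-0.62, edgeR adjusted p = 0.0281). Of the 2 tested perineurial markers, Itgb4 fell by 1.44 on the log2 scale and Slc2a1 rose by 0.59 (not called without culture 1 or 3). Against culture 1, Itgb4 was 1.27 and 1.35 log2 units higher in cultures 2 and 3. Uchl1 was 1.30 and 1.46 higher, beside 1.31 and 1.48 for the Schwann cell gene Sox10. Slc2a1 and Tubb3, a neuronal marker, had negative ratios. Which cells carried these genes, and what other cell types add to the markers below, was not tested.

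Of the 9 markers, 8 passed the filter, and S100b alone was called as changed with NRG1. It fell by 0.58 on the log2 scale, to 0.670 of the mock level (edgeR's quasi-likelihood test with culture as a block, Benjamini-Hochberg adjustment over 9740 genes, adjusted p = 0.00883, called at 0.01 or less). That is 1 of 8 tested markers, or 12.5%, against a background of 11.8% of all genes tested, of which 6.31% were called higher and 5.51% lower, so the share was near the background. No marker was called higher by edgeR or by DESeq2 with the block, while at an unadjusted p under 0.05 edgeR had 1 marker higher and 3 lower. At an adjusted p of 0.05 or less, Nes (higher) joined S100b (lower), where the background was 23.2%. No marker passed both an adjusted p of 0.01 and a 2-fold change, which 3.47% of all genes did. The median log2 fold change of the 8 markers was -0.17, beside -0.03 for all genes tested.

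In none of the 8 markers did the 3 NRG1 libraries lie wholly above or below the 3 mock libraries, whereas 20.1% of all genes tested had groups that did not overlap. Within cultures, Nes was higher with NRG1 in all 3 pairs, as were 25.9% of all genes, and Vim and S100b were lower in all 3, as were 30.0%. In bulk RNA, fewer cells of a type and less RNA per cell cannot be told apart, for S100b and for every gene below.

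**Figure D1:**
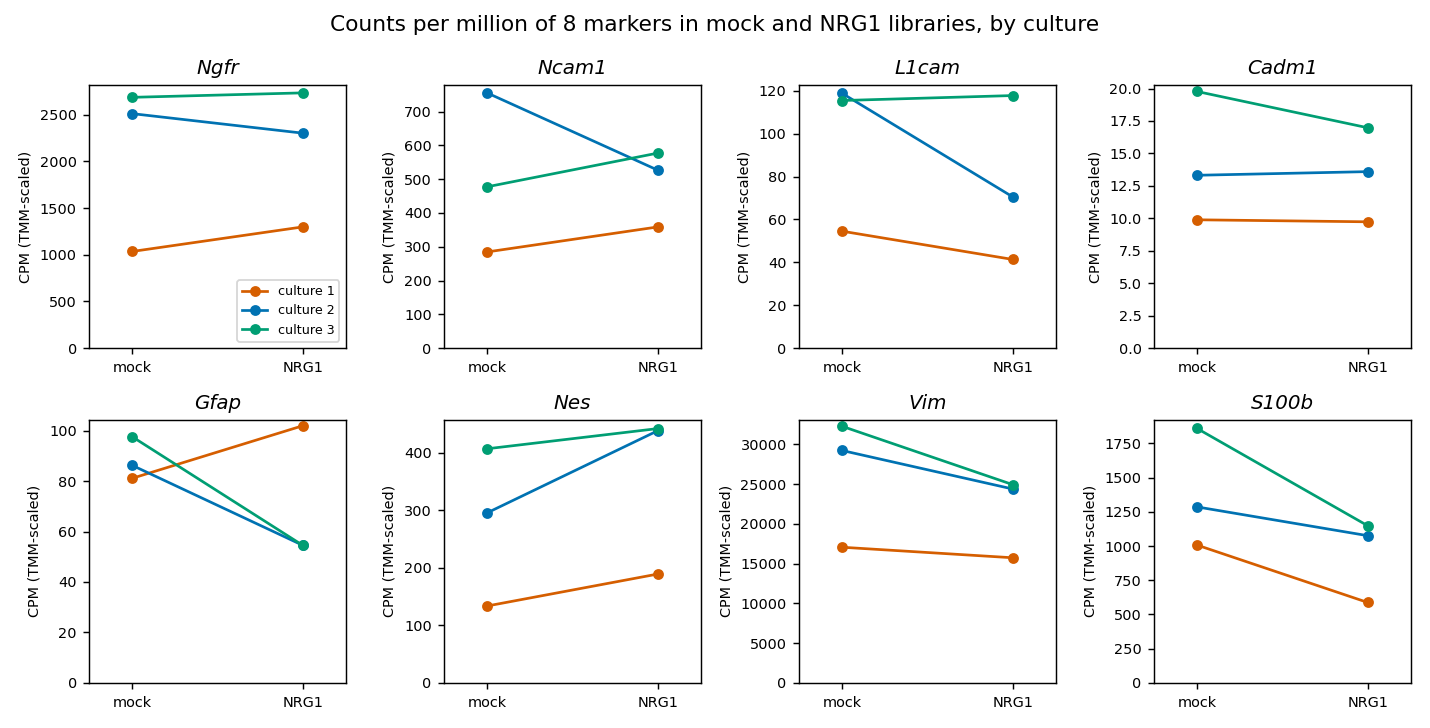
CPM of the 8 tested markers in the mock and NRG1 library of each culture, each panel with its own axis starting at 0 and each line joining the pair of 1 culture. S100b falls along all 3 lines and Nes rises along all 3, while for most markers the lines of culture 1 lie lowest and Gfap crosses.

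Ngfr encodes p75, the low-affinity receptor for neurotrophins and a standard marker of immature and repair Schwann cells. It measured 1036 CPM in mock 1, 2513 in mock 2 and 2688 in mock 3, and 1299, 2303 and 2735 CPM in NRG1 1, 2 and 3. Both libraries of culture 1 were the lowest, and the other 4 fell in one range with mock and NRG1 mixed. The means were 2079 ± 908 CPM in mock and 2113 ± 737 in NRG1 (SD, n = 3). The log2 fold change was 0.08 with a 95% interval of -0.23 to 0.38 (edgeR adjusted p = 0.737).

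The other markers of the cell surface are adhesion molecules of the immunoglobulin superfamily. Ncam1 encodes NCAM, which binds itself on a neighbouring cell. It measured 285, 755 and 477 CPM in mock 1, 2 and 3, and 359, 527 and 577 CPM in NRG1 1, 2 and 3. Ncam1 was higher with NRG1 in cultures 1 and 3 and lower in culture 2, and the ranges overlapped widely. Its log2 fold change was 0.03 (95% interval -0.31 to 0.37, edgeR adjusted p = 0.913).

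L1cam encodes L1, which Remak cells use to hold axons. It measured 54.5, 119 and 115 CPM in mock 1, 2 and 3, and 41.3, 70.5 and 118 CPM in NRG1 1, 2 and 3. L1cam was lower with NRG1 in cultures 1 and 2 and level in culture 3, where the log2 ratio was 0.03. Its log2 fold change over the 3 pairs was -0.37 ± 0.14 (SE), which did not pass (edgeR adjusted p = 0.0814).

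Cadm1 encodes a nectin-like adhesion molecule known as a partner of Cadm4 in the contact between axon and Schwann cell. It had 73 to 263 counts per library, the fewest of the 8 tested markers. The levels were 9.89, 13.3 and 19.8 CPM in mock 1, 2 and 3, and 9.73, 13.6 and 17.0 CPM in NRG1 1, 2 and 3. The mock and NRG1 library of each culture lay close together for Cadm1, with pair log2 ratios of -0.02, 0.03 and -0.22 and a fitted log2 fold change of -0.09 (95% interval -0.44 to 0.27, edgeR adjusted p = 0.748).

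Gfap encodes the intermediate filament protein shared by Remak cells, repair Schwann cells and astrocytes. It was the marker on which the cultures disagreed most. Its levels were 81.1, 86.3 and 97.6 CPM in mock 1, 2 and 3, and 102, 54.5 and 54.5 CPM in NRG1 1, 2 and 3. NRG1 1 was the highest of the 6 libraries for Gfap and the other NRG1 libraries were the lowest, while the mock libraries lay close together. The pair log2 ratios were 0.33 in culture 1, -0.66 in culture 2 and -0.84 in culture 3, with an SD of 0.63, the largest among the 8 tested markers. Over the 3 pairs the log2 fold change was -0.40 ± 0.18 (SE) and did not pass (edgeR adjusted p = 0.128). Without culture 1, where the fibroblast sum was highest, Gfap was -0.75 ± 0.18 and passed (edgeR adjusted p = 0.000489). Without culture 2 Gfap was -0.27 (edgeR adjusted p = 0.371) and without culture 3 it was -0.14 (edgeR adjusted p = 0.726), and neither passed. Whether culture 1, with 1 library per condition, responded differently was not tested.

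Nes encodes nestin, a filament protein of neural precursors that Schwann cells also carry. It measured 133, 295 and 407 CPM in mock 1, 2 and 3, and 189, 438 and 442 CPM in NRG1 1, 2 and 3. Each NRG1 library exceeded the mock library of its own culture, by log2 ratios of 0.50, 0.57 and 0.12, but NRG1 1 lay below mock 2 and mock 3. The log2 fold change of Nes was 0.39 ± 0.13 (SE), or 1.31-fold, with a 95% interval of 0.12 to 0.67, and missed the threshold (edgeR adjusted p = 0.0396).

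Vim encodes vimentin, the filament protein of Schwann cells, fibroblasts and most cultured cells. It took 1.52% to 3.29% of all gene counts. The levels were 17055, 29221 and 32265 CPM in mock 1, 2 and 3, and 15729, 24372 and 24922 CPM in NRG1 1, 2 and 3. Vim was lower with NRG1 in each culture, by pair log2 ratios of -0.12, -0.26 and -0.37. Its log2 fold change of -0.25 ± 0.16 (SE) did not pass (edgeR adjusted p = 0.288), and both libraries of culture 1, where the fibroblast sum was highest, had the lowest Vim.

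S100b encodes a calcium-binding protein of glia and is the usual stain for Schwann cells of every mature kind. It measured 1007, 1286 and 1860 CPM in mock 1, 2 and 3, and 588, 1076 and 1148 CPM in NRG1 1, 2 and 3. Each NRG1 library lay below its mock library, and the groups overlapped because NRG1 2 and NRG1 3 exceeded mock 1. The pair log2 ratios were -0.78, -0.26 and -0.70, and the means were 1385 ± 435 CPM in mock and 937 ± 305 in NRG1 (SD, n = 3). The fitted change was -0.58 ± 0.14 (SE, 95% interval -0.88 to -0.28). Leaving out 1 culture took S100b over the threshold for cultures 1 and 3. Without culture 1 it was -0.47 ± 0.19 (adjusted p = 0.0571), and without culture 3 it was -0.50 (adjusted p = 0.136).

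Without culture 1, 12.0% of 9926 genes were called, and Gfap was the marker among them. Without culture 2 the share was 8.86% of 10339, with S100b the marker called. Without culture 3 it was 6.51% of 10160, with no marker called by edgeR, although 1 was higher and 2 lower at an unadjusted p under 0.05. The direction of S100b, L1cam, Gfap, Vim and Nes held in each of these fits, whereas Ngfr, Ncam1 and Cadm1 each changed sign in at least 1 of them.

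**Figure D2:**
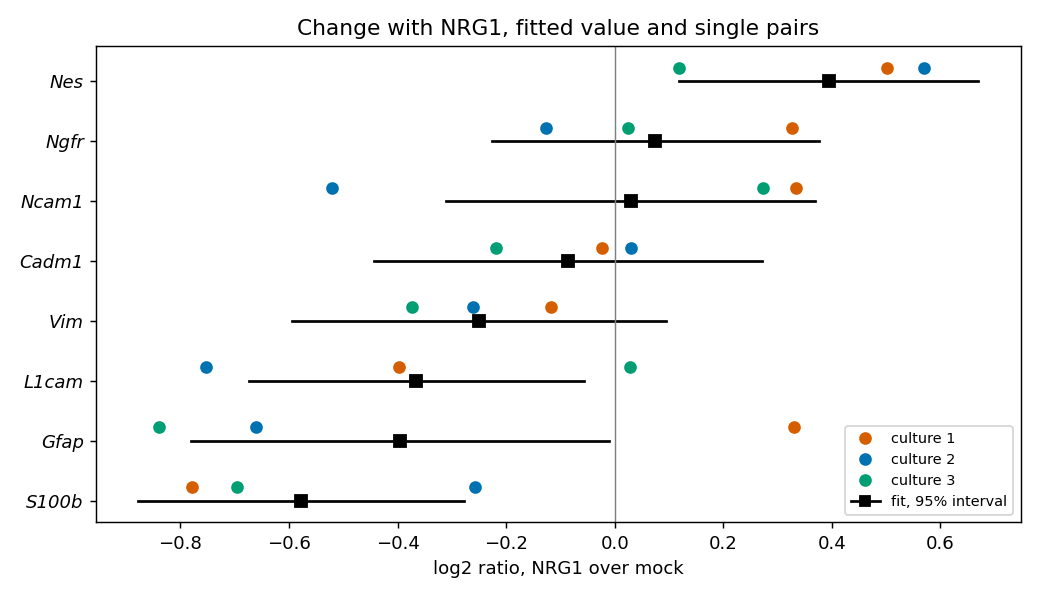
Log2 fold change of the 8 tested markers, NRG1 over mock, with the 95% interval of the edgeR fit as a bar and the log2 ratio of each culture as a coloured point. The intervals of S100b and Nes lie furthest to the left and right of 0, and the 3 points of Gfap spread from -0.84 to 0.33.

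Because S100b was the marker that passed and Nes the next in order of adjusted p, with the opposite direction, their promoter windows are printed. The windows come from RefSeq on build GRCr8, a later build than the rn5 assembly behind the counts. They hold the 250 bases upstream of the annotated start, 5′ to 3′ along the gene, with matches to the motifs searched in capitals. RefSeq windows were found for 4 of the 9 markers (Nes, Gfap, Vim and S100b). The S100b window lies at chr20:12381082-12381331 on the minus strand and the Nes window at chr2:175736338-175736587 on the plus strand.
S100b: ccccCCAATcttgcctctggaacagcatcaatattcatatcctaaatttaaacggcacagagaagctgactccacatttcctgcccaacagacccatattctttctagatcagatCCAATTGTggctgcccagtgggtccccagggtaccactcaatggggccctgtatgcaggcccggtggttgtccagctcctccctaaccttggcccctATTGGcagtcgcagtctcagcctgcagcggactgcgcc
Nes: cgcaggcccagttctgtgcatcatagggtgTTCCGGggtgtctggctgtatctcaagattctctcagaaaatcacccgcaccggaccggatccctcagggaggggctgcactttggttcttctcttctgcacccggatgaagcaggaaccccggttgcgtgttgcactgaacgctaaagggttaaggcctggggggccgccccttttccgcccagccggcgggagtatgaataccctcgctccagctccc
Searched on both strands were the SOX cores ACAAAG and ACAAT, the AP-1 site TGANTCA, the CRE core TGACG, the ETS core CCGGAA, the CCAAT box and the TATA box TATAAA. The S100b window held the CCAAT box 3 times, starting 246, 135 and 38 bases upstream, the last on the opposite strand. It also held ACAAT once on the opposite strand, starting 132 bases upstream, where it shares bases with the CCAAT box at 135. The Nes window held CCGGAA once, on the opposite strand 220 bases upstream. In all 33469 RefSeq windows of this length, CCAAT occurred in 34.0%, ACAAT in 30.0% and CCGGAA in 12.6%, and the motifs not found in either window occurred in 16.3% (ACAAAG), 6.34% (TGANTCA), 18.2% (TGACG) and 12.9% (TATAAA). These matches are letters in a window and were not tested for binding.

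Gap43 encodes a growth cone protein of neurons that precursor, immature and non-myelinating Schwann cells carry as well. It was nearly absent from the counts, with 0, 1 and 1 counts in mock 1, 2 and 3 and 1, 1 and 5 counts in NRG1 1, 2 and 3, or 9 of 59049038 gene counts in all. The highest level, in NRG1 3, was 0.323 CPM, and the remaining 5 libraries were below the floor of 3 counts. Gap43 did not pass the filter, so it has no test and no fold change. Col1a2 was likewise at 0 to 2 counts in every library while Col1a1, whose product joins the same collagen, had at least 119349 counts, and whether such near absences lie in the cells or in the counting was not tested.

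More of the markers passed the test of culture than the test of NRG1. In the test of culture within the same fit, 6 of the 8 markers passed at an adjusted p of 0.01 or less, where 23.4% of all genes did. These were Nes (adjusted p = 1.82e-05), L1cam (0.000141), Ngfr (0.000154), S100b (0.00215), Ncam1 (0.00302) and Cadm1 (0.00902), all from edgeR. Vim (0.0117) and Gfap (0.241) did not pass.

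The difference lay between culture 1 and the others. Against culture 1, culture 2 was higher in 4 markers, where 19.1% of all genes differed in either direction, and culture 3 was higher in 7, where 24.4% did. Between cultures 3 and 2, 0 of the 8 markers passed, where 0.688% of genes did, and Cadm1, at an unadjusted p of 0.0416, was the 1 marker under 0.05. Without culture 1, 0 of the 8 markers differed between the remaining cultures, at an unadjusted p under 0.05 as well.

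Nes was 1.18 log2 units higher in culture 2 and 1.42 higher in culture 3 than in culture 1, and Ngfr was 1.05 and 1.22 higher. For L1cam the ratios were 0.96 and 1.31, and for Ncam1 they were 1.00 and 0.71. S100b had 0.62 (not called) and 0.92, Vim 0.70 (not called) and 0.79, and Cadm1 0.46 (not called) and 0.90. Gfap alone among the 8 had negative ratios, -0.44 and -0.34, and neither was called.

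Other Schwann cell genes moved the same way between cultures. Sox10, the lineage transcription factor, was 1.31 and 1.48 log2 units higher in cultures 2 and 3 than in culture 1, and Erbb3, the NRG1 receptor, was 1.15 and 1.30 higher, both genes called in both contrasts. Cdh19, a cadherin of Schwann cell precursors, had 0.22 and 0.25 and was not called. Fibroblast genes ran the other way, with Pdgfrb at -2.02 and -2.23 and Col3a1 at -5.62 and -6.45. The part of the fibroblast RNA of culture 1 in these differences was not tested, and culture 1 is 1 preparation.

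**Figure D3:**
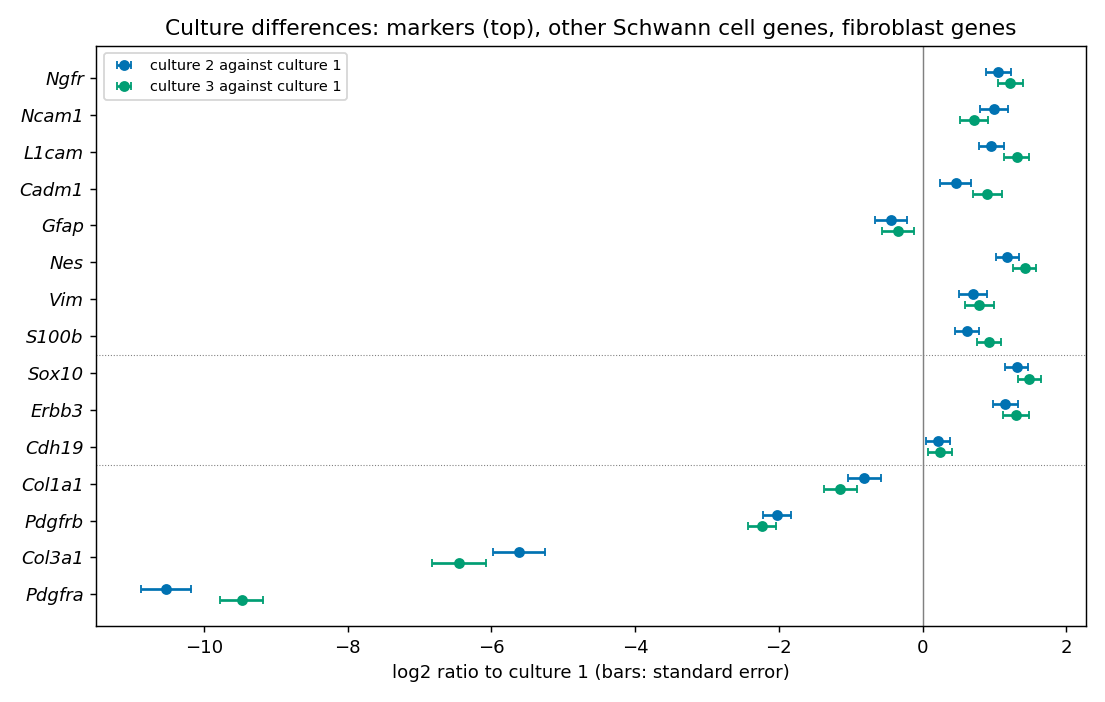
Log2 ratio of cultures 2 and 3 to culture 1 for the 8 tested markers (top), 3 other Schwann cell genes (middle) and 4 fibroblast genes (bottom), with the standard error of the edgeR fit as a bar. Of the markers, 7 lie to the right of 0 and Gfap to the left, and the fibroblast genes lie to the left, Pdgfra furthest, at 1 to 25 counts in cultures 2 and 3, so few that its fitted ratio is imprecise.

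The genes that work with the markers were read from the same fit, list by list, beside the 11.8% called among all genes (6.31% higher, 5.51% lower). Among 17 tested genes of neurotrophin signalling and the p75 complex, edgeR called 0 higher and 3 lower (17.6% in all), with a median log2 fold change of -0.30. At an unadjusted p under 0.05 there were 1 higher and 9 lower, and DESeq2 with the block called 0 higher and 4 lower. Among them, Ntrk3, a receptor for neurotrophins, went from 29.0 ± 8.81 to 10.9 ± 3.66 CPM (log2 fold change -1.39 ± 0.21, edgeR adjusted p = 0.000427). Lingo1, a p75 co-receptor, fell by 1.96 ± 0.30 (SE), the largest fall of the list. Its counts were low, at 62, 24 and 64 in mock 1, 2 and 3 and 17, 5 and 23 in NRG1 1, 2 and 3. Both Ntrk3 and Lingo1 stayed called without any 1 culture. Ngfr itself did not pass, and the difference between it and these genes was not tested.

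Among 7 tested relatives and partners of the adhesion markers, edgeR called 2 higher and 0 lower (28.6%), with a median of -0.06. At an unadjusted p under 0.05, 3 were lower, Ncam2 (-1.35), Cadm2 (-0.83) and Ank3 (-0.55), and DESeq2 with the block called Ank3, an anchor of L1 family proteins, lower as well. Nrcam, an L1 family member, went from 42.6 ± 22.4 to 82.4 ± 42.0 CPM (0.96 ± 0.12, edgeR adjusted p = 9.24e-05). Ezr encodes ezrin, which ties membrane proteins such as L1 to actin, and rose by 0.90. Both stayed called without any 1 culture. Cadm4, the Schwann cell partner in the Cadm family, was at 2261 ± 1109 CPM in mock and 2261 ± 831 in NRG1 (0.08, adjusted p = 0.731).

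Among 5 tested filament genes, edgeR and DESeq2 with the block each called 0 higher and 1 lower (20.0%), with a median of 0.27 and 1 gene higher at an unadjusted p under 0.05. Synm, encoding synemin, which assembles with vimentin and GFAP, fell by 0.69 and was no longer called without culture 2 (adjusted p = 0.0123). Nefl, a neurofilament gene that cultured Schwann cells also carry, was at 3518 ± 1753 CPM in mock and 4143 ± 1932 in NRG1 (0.27, adjusted p = 0.187).

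The S100 list had 9 tested genes, 8 of them family members other than S100b and the other S100pbp, which encodes an S100P-binding protein. Of these, edgeR called 0, with S100a13 and S100pbp lower at an unadjusted p under 0.05, DESeq2 with the block also called 0, and the median was -0.14. Among 7 tested growth cone proteins related to Gap43, edgeR and DESeq2 with the block each called 0 higher and 1 lower (14.3%), with a median of 0.09 and 1 gene, Basp1, higher at an unadjusted p under 0.05. The called gene, Marcks, a substrate of protein kinase C, fell by 0.77 from 910 ± 176 to 548 ± 182 CPM, and the call was lost without culture 3 (adjusted p = 0.0148). Basp1, a growth cone protein of the same kind as GAP43, was present at 102 ± 23.0 CPM in mock and 134 ± 23.3 in NRG1 (0.40, adjusted p = 0.0247, not called).

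Other genes of precursor, immature, non-myelinating and repair Schwann cells gave 2 higher and 4 lower among 16 tested (37.5%), with a median of -0.14, where DESeq2 with the block called 2 higher and 3 lower. The 4 lower were Cdh19 (-1.10), Ednrb, the endothelin B receptor (-1.07), Scn7a, a sodium channel of non-myelinating cells (-0.93), and Egr1, a transcription factor of non-myelinating cells (-1.13). The 2 higher were Shh, made by repair cells (1.04), and Tfap2a, a factor of precursor cells (0.68). Cdh19, Ednrb and Scn7a stayed called without any 1 culture, while Tfap2a was lost without each culture, Shh without culture 1, and Egr1 without culture 2 or 3.

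Genes of myelinating Schwann cells, the alternative fate, had 11 lower and 1 higher among 18 tested (66.7%), with a median of -1.04. The list was chosen with earlier results of these data known. It holds genes that the paper reports as lower, such as Pmp22, Egr2, Mal and Fa2h, so neither its share nor its median is an independent result. Drp2, a scaffold beneath the myelin membrane, had the largest fall over the 3 pairs, from 13.6 ± 14.7 to 2.02 ± 0.489 CPM (-2.40 ± 0.35, edgeR adjusted p = 0.000279). This size rested on culture 2: without it Drp2 was at -1.58. Fa2h, an enzyme of myelin lipids, was then at -1.90, and Egr2, Pllp, Mal and Pmp22 also fell further than Drp2. Gldn, encoding gliomedin of the node of Ranvier, was the 1 that rose (0.80). The widest fitted change among the 8 tested markers, that of S100b, was under the median of this list in size. Given how the list was chosen, that comparison is not an independent result either, and S100b is itself found in myelinating cells.

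**Figure D4:**
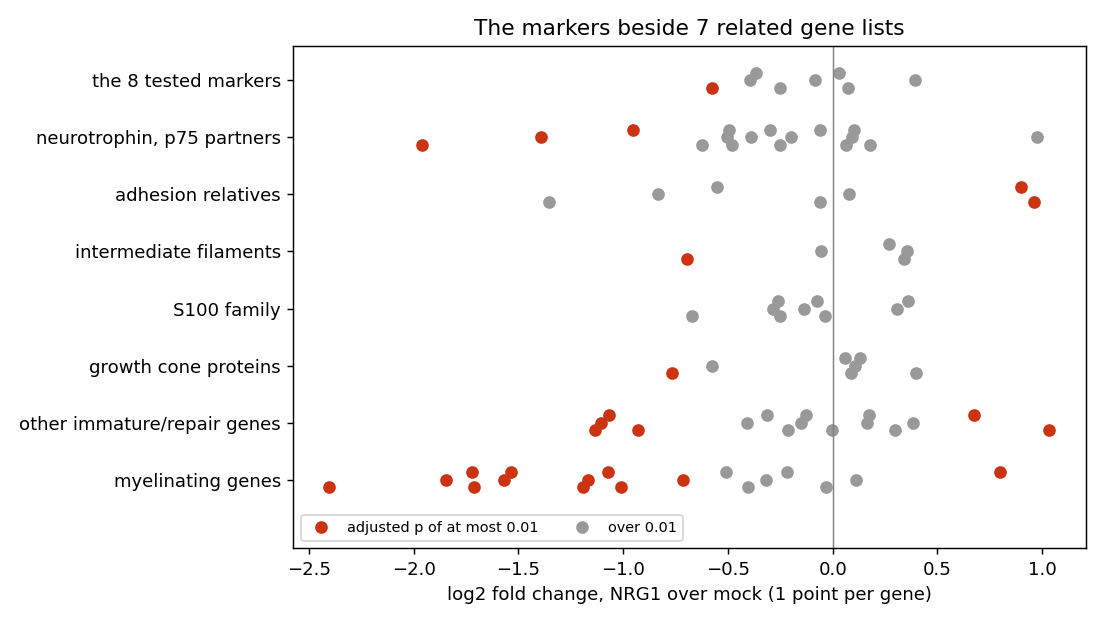
Log2 fold change of every tested gene, NRG1 over mock, for the 8 tested markers (top) and 7 related gene lists, with genes at an adjusted p of 0.01 or less in red and the rest in grey. The markers lie between -0.58 and 0.39, while the myelinating genes reach -2.40 (Drp2, which is at -1.58 without culture 2).

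Across the 6 libraries, Ngfr, Ncam1, L1cam, Cadm1, Nes and Vim varied together, with Pearson r of log2 CPM between 0.59 and 0.95 for every pair of them. S100b had r of 0.46 to 0.89 with these 6, and Gfap had negative r with each of the other 7, from -0.53 to -0.09. The libraries share cultures and culture 1 is low in most markers, so these values describe the libraries and carry no test. The 2 genes closest to each marker were Fbxl6 (r = 0.999) and Pomgnt2 (0.997) for Ngfr, Adcy1 and Pcdhga3 (both 0.986) for Ncam1, Pcdhb8 (0.993) and Atat1 (0.992) for L1cam, and Abhd12 (0.995) and Gnai2 (0.992) for Cadm1. They were Paqr3 and Lrrc16b (both 0.969) for Gfap, Fam212a (0.998) and Pex26 (0.996) for Nes, Mapk3 and Pcdhb10 (both 0.997) for Vim, and Thyn1 (0.993) and Tdrkh (0.991) for S100b. Of these 16 genes, Fam212a was called with NRG1 (0.61, edgeR adjusted p = 0.00781).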

How the data were processed

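The authors mapped reads of poly(A)-selected libraries to rn5 with TopHat2 2.0.10 and counted them per RefSeq gene with HTSeq (tools and build as in the submitters' processing notes). The deposited values are raw counts per gene, not normalized. The summary lines, which name no gene, were left out of totals and tests: between 47.0% and 49.9% of each file's total was on genes. Whether counting used strand is not given in the sources used here. Groups and culture numbers came from the sample titles. The 9 markers and the gene lists were chosen with earlier results of these data known.

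Counts were tested with edgeR 4.0.16 in R 4.3.3 (TMM, filterByExpr at a minimum count of 10, quasi-likelihood F test, culture number as a block, Benjamini-Hochberg adjustment). Calls were made at an adjusted p of 0.01 or less. SE is the absolute log2 fold change over the square root of F. CPM is TMM-scaled, and log2 CPM used a prior count of 2. Numbers mark independent preparations per the study's methods, so libraries were paired. Deviations from group means correlated at r = 0.906, 0.673 and 0.810 within numbers and -0.797 to 0.514 between. Centring each group of 3 libraries pulls the values between numbers down. Those between cultures 2 and 3 were 0.514 and 0.512, so these r are a description and no test of the pairing. Intervals and floors cover counting error or library spread only, and p-values rest on 3 preparations. Alternatives were no block, RLE scaling, other filters, DESeq2 1.42.0, robust fitting, other thresholds and leaving out each culture. The procedure was tested on simulated data. Named genes were the 9 markers, per list the called gene with the largest rise and fall, the 2 genes most like each marker and the marker of highest CPM, not per length, in each other cell type list; further genes named were chosen after their values were seen. Some items are not reported here. Levels of the markers were not compared between genes, as no transcript lengths were used here.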

Additional observations from a re-analysis of the deposited data

How the results depend on the processing

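Each marker's log2 fold change was recomputed under 10 alternatives, and 69 of the 80 values kept their direction and side of the threshold. Without the replicate block the fits give the pairing up, and the spread between libraries, as edgeR's common coefficient of variation, went from 0.119 to 0.374. edgeR without the block then called 0 of 9740 genes (1334 at an unadjusted p under 0.05), so 0 genes higher, 0 lower and 0 of the listed genes in either direction. S100b was -0.56 (adjusted p = 0.552) and Ncam1 turned to -0.053. DESeq2 without the block called 114 genes higher and 70 lower and 0 markers, with S100b again at -0.56 and Ncam1 at -0.045. With the block, RLE scaling, stricter and looser filters, robust fitting and DESeq2 kept the 1 marker called lower, S100b.

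At an adjusted p of 0.05, 1124 genes were higher, among them 1 marker, 1136 were lower and 3538 differed between cultures. With a 2-fold change also required, 152 were higher and 186 lower, and 0 markers were called. With no low-count filter, 857 were lower and 3543 differed between cultures. Leaving out each culture in turn gave 408 to 590 genes higher (615 in all), 253 to 601 lower (537), 3 to 4 listed genes higher (5), 0 to 1 markers lower, 0 to 7 markers differing between cultures (6) and 245 to 3783 genes differing between cultures (2278). It moved S100b from -0.73 to -0.47, Gfap from -0.75 to -0.14, Ngfr from -0.047 to 0.18, Ncam1 from -0.12 to 0.31 and Cadm1 from -0.14 to 0.027. The lowest counts of genes called came without culture 3, and that of culture differences without culture 1. The cause was not tested.

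Cadm1, with 73 to 263 counts a library, is the least precise tested marker in counting terms, and Gap43 was under the floor of 3 counts in 5 of the 6 libraries. Levels per transcript length were planned and not run, as no transcript lengths were used here.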
